A study of Mus musculus with 2 samples.

Results

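Classical monocytes with a low interferon signature were described among CD45+ leukocytes of mouse B16F10-OVA tumours, a melanoma line that carries ovalbumin, profiled by droplet single-cell RNA sequencing. A cell was taken when it had at least 2 unique molecular identifiers (UMIs, the counts of captured RNA molecules) of Ly6c2, at least 1 of Ccr2 and at least 5 of Lyz2. It also had to have no more than 2 UMIs over C1qa, C1qb and C1qc, fewer than 5 over Ifit1, Ifit2 and Ifit3, and fewer than 20 of Ccl24. Hspa1a and Hspa1b had to hold under 0.5% of its UMIs, fewer than 4 of Nos2, Egln3, Ndrg1, Adm, Hilpda and Ero1l could be detected, and Ace, Treml4, Cd3e and Flt3 had to be at 0. This gave 1109 of 14809 kept cells, which were 581 of 7134 in the PBS library and 528 of 7675 in the UDSP-Hep library. Both groups of mice bore subcutaneous tumours from the same line and were injected on days 10, 12, 14 and 16, one group with PBS, a saline buffer, and the other with UDSP-Hep, an agent that the labels name without describing. Tumours were taken on day 19, and 3 tumours of a group went into 1 library, with no map from cells to tumours. Each group therefore had 1 library and no replicate, and the groups could not be tested against each other. The strain, sex and age of the mice are not given in the sources used here.

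Classical monocytes leave the bone marrow through CCR2, the receptor for the chemokine CCL2, circulate with high surface Ly6C, and enter inflamed tissue and tumours. There they can mature into macrophages or into antigen-presenting cells, and on the way they lose blood monocyte transcripts and may gain MHC class II molecules, which present peptides to CD4 T cells. Type I interferons raise antiviral genes such as the Ifit family in these cells, and interferon-gamma from T and NK cells raises antigen presentation and guanylate-binding protein genes.

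The genes that define the label were present, but unevenly. Plac8, an abundant monocyte transcript that the rule did not use, was at 4936 against 2013 CPM in PBS and 4781 against 1970.2 CPM in UDSP-Hep when the cells were set against all other kept cells, and 99.3 and 99.1% of the cells had a UMI of it. Chil3, a chitinase-like secreted protein of bone marrow monocytes, was at 1285 against 589.9 CPM in PBS and 1293 against 334 CPM in UDSP-Hep, with a UMI in 66.4 and 67.4% of the cells. Vcan, the proteoglycan versican, was at 322 against 79.5 CPM in PBS and 196 against 41.1 CPM in UDSP-Hep, with a UMI in 63.5 and 45.5% of the cells. Nearly all cells thus had Plac8, at 0 to 171 and 0 to 189 UMIs per cell, and a part of them had Chil3 and Vcan. Ly6c2 itself, which chose the cells, had medians of 14 and 15 UMIs per cell (range 2 to 157 and 2 to 336). Here and below CPM is the UMI count of a gene per 1000000 UMIs summed over the cells named, pairs of values are PBS then UDSP-Hep, and bracketed ranges are 95% intervals that cover counting error only.

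The cells held 5284672 and 5145794 UMIs in all, with medians of 8313 and 8942.5 UMIs and 2638 and 2775 genes per cell, and 2.39 and 2.18% mitochondrial UMIs. They were thus close in depth, while all kept cells had medians of 8116 and 5793 UMIs. The libraries shared 25 barcodes, of which 1 was among these cells. RNA on the marker lists of other cell types was present and differed between the libraries. The largest sums were those of related myeloid cells. The 7 macrophage markers summed to 1212 and 1883 CPM, of which Apoe gave 725 and 1379 CPM. The 8 nonclassical monocyte markers summed to 816 and 1137 CPM, of which Nr4a1 gave 484 and 805 CPM. The 7 neutrophil markers summed to 168 and 1080.3 CPM, the 6 NK cell markers to 188 and 386 CPM, the 6 T cell markers to 25.5 and 41.8 CPM and the 5 B cell markers to 10.2 and 6.41 CPM. Of the neutrophil sums, Csf3r alone gave 157 and 189 CPM, with UMIs in 67.5 and 74.1% of the cells. The PBS sum was thus mostly a gene that most of the cells held. In UDSP-Hep, 3 cells held 74.4% of the neutrophil marker UMIs. Of the defining neutrophil markers, Mmp9 was at 0 in PBS, and all 4 globin genes were at 0 in both libraries. At least 3 UMIs of lymphoid markers, or of S100a8, S100a9 and Retnlg together, were found in 14 of 581 cells and in 55 of 528. The values of genes that these cells carry are given below with and without them.

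Just inside and outside the limits the values were as follows. Cells with 4 Ifit UMIs (23 and 10 cells) had 119 and 123 CPM of Isg15, an interferon-induced ubiquitin-like protein, and cells just outside with 5 (16 and 7 cells) had 89.5 and 245. Cells with 2 UMIs of Ly6c2 (32 and 34 cells) had 4399.5 and 3392 CPM of Plac8, and cells that met every other condition with 1 UMI of Ly6c2 (33 and 45 cells) had 2207 and 2484. Isg15 had no common order across the Ifit limit in the libraries, while Plac8 was higher inside the Ly6c2 limit in both. No Ifit UMI was found in 399 and 370 of the chosen cells.

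The share of these cells was compared over several denominators. Of all kept cells they were 8.14% (7.52 to 8.80) in PBS and 6.88% (6.32 to 7.47) in UDSP-Hep, a ratio of UDSP-Hep over PBS of 0.845 (0.754 to 0.946). Of the cells with at least 5 UMIs of Lyz2, the lysozyme gene of myeloid cells, they were 17.3% (16.0 to 18.6) in PBS and 16.8% (15.5 to 18.1) in UDSP-Hep, a ratio of 0.969 (0.870 to 1.08). The interval of the ratio excluded 1 over all kept cells and included it over Lyz2 cells. These shares hold for the limits of the rule, which left out unlike numbers of cells in the libraries. Cells that missed the rule only through the limit on Hspa1a and Hspa1b were 85 and 3. Those left out only through Ccl24 were 90 and 28, and only through the genes from Nos2 to Ero1l 87 and 41. The C1q limit alone left out 113 and 188 cells, and the Ifit limit alone 112 and 74. The condition on Ace alone left out 182 and 178 cells, that on Treml4 30 and 49, that on Cd3e 30 and 61 and that on Flt3 91 and 65. When every cell was thinned at random to 3000 UMIs and the rule was applied to the thinned counts, the share of kept cells was 11.4% (10.6 to 12.2) in PBS and 10.9% (10.1 to 11.7) in UDSP-Hep, a ratio of 0.953 (0.863 to 1.05). Thinning also lowers the UMIs that the upper limits of the rule count, so 731 and 656 cells then met it. Among classical monocytes, which are the chosen cells plus those that missed the rule only through 5 or more Ifit UMIs, the low-interferon share was 83.8% (80.9 to 86.5) in PBS and 87.7% (84.8 to 90.2) in UDSP-Hep, a ratio of 1.05 (1.00 to 1.09). After thinning it was 94.0% (92.0 to 95.5) in PBS and 95.9% (94.1 to 97.3) in UDSP-Hep, a ratio of 1.02 (0.997 to 1.05).

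The balance with Ace and Treml4 cells differed more. These are cells with 2 or more UMIs of Ace and Treml4, genes known from nonclassical patrolling monocytes. They also met the rule's other conditions, among them the C1q and Ifit limits, except that Ly6c2 and Ccr2 were left free. Cells so gated were 4.35% (3.88 to 4.84) in PBS and 7.82% (7.23 to 8.44) in UDSP-Hep of kept cells, a ratio of 1.80 (1.57 to 2.06). Of the low-interferon, Ifit and Ace and Treml4 cells together, the low-interferon cells were 57.9% (54.8 to 61.0) in PBS and 43.9% (41.1 to 46.8) in UDSP-Hep, a ratio of 0.758 (0.698 to 0.824). After thinning, that ratio was 0.782 (0.735 to 0.831). Cells that held Ace or Treml4 UMIs, but fewer than 2 together, are in none of these groups.

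**Figure D1:**
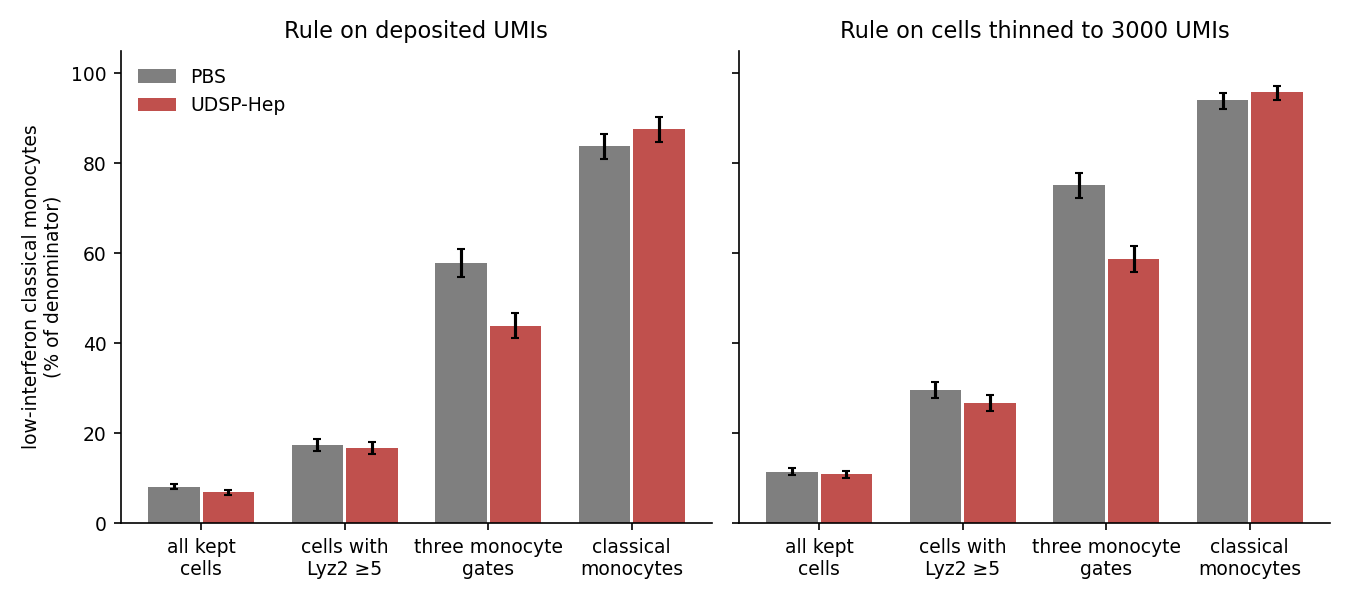
Bars give low-interferon classical monocytes as a percent of 4 denominators (x axis) in the PBS (grey) and UDSP-Hep (red) libraries, with 95% Clopper-Pearson intervals, for the rule on deposited UMIs (left) and on cells thinned to 3000 UMIs (right). The bars for the 3 monocyte gates are the pair that lies farthest apart, at 57.9% and 43.9% on the left.

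Within the low-interferon cells, 575 of 8788 genes with at least 50 summed UMIs were higher in UDSP-Hep (6.54% of the genes) and 153 were lower (1.74%), or 480 and 222 when scaled by the median of ratios. A gene was counted when its ratio of CPM was at least 1.5 in either direction and the interval of the ratio excluded 1, which is a rule of size and not a test. For gene lists, members with at least 20 summed UMIs were used, and over all 10125 such genes 7.5% were higher, 1.89% were lower and the median log2 ratio was 0.07. None of these differences has a replicate check.

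MHC class II chain genes were higher in UDSP-Hep. H2-Aa, the alpha chain of the I-A molecule, was at 1158 CPM (1129.6 to 1188) in PBS and 2555 CPM (2511 to 2599) in UDSP-Hep, a ratio of 2.21 (2.14 to 2.27). Its partner chain H2-Ab1 was at 1158 and 2272 CPM, a ratio of 1.96 (1.90 to 2.02), and H2-Eb1, a beta chain of I-E, was at 781 and 1617 CPM, a ratio of 2.07 (1.99 to 2.15). Both I-A chains were thus higher by a similar ratio. Cd74, the invariant chain that escorts class II molecules to the peptide-loading compartment, was at 3333 and 5912 CPM, a ratio of 1.77 (1.74 to 1.81), and H2-DMb1, of the peptide exchange factor, was at 254 and 424 CPM. In all, 5 of 13 measured list genes were higher past the fold and none was lower, with a median log2 ratio of 0.46. The protease gene Ctss was at 2151 and 2578 CPM, Ifi30, a lysosomal thiol reductase, was at 781 and 717 CPM, and Ciita, the transcriptional master regulator of class II genes, was at 61.1 and 77.9 CPM, and these 3 were not past the fold. H2-Ab1 UMIs were seen in 37.1 and 61.7% of cells thinned to 3000 UMIs, against 20.2 and 25.1% of thinned T cells, which should lack the gene and whose median depths were 7013 and 5520 UMIs before thinning. Here and below, T cells are kept cells with at least 2 UMIs of Cd3e and none of Csf1r, a gene of monocytes and macrophages. This leaves out T cells that carried Csf1r RNA, so the background they show for myeloid genes may be too low. Without the cells that carried lymphoid or neutrophil RNA, the H2-Aa ratio was 2.24 (2.17 to 2.32), and without the 3 cells richest in H2-Aa in each library it was 2.38 (2.30 to 2.45).

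Class II promoters carry a conserved set of elements that includes a Y box, an inverted CCAAT box, and the windows of H2-Aa and H2-Eb1, of 2 of the chains that were higher, are shown for it. H2-Aa lies at chr17:34282744-34287823 on the minus strand and H2-Eb1 at chr17:34305867-34316674 on the plus strand of GRCm38 (GENCODE M21). The promoter windows, from RefSeq on GRCm38.p6, run from 250 bases before to 50 bases after the gene start and cover chr17:34287774-34288073, minus strand, and chr17:34305617-34305916, plus strand. Capitals mark GATTGG, the Y box core, on either strand.
H2-Aa: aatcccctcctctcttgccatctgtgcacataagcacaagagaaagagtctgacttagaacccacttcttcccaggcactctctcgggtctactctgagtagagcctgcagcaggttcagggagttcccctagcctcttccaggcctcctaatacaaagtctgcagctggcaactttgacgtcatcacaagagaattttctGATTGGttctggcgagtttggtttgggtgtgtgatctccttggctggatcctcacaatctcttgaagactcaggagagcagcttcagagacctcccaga
H2-Eb1: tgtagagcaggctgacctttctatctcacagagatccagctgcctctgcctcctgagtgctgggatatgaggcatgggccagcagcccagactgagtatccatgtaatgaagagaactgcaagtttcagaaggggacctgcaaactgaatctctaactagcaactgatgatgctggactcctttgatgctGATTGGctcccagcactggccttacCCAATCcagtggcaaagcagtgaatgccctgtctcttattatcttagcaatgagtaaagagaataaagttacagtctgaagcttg
The window of H2-Aa holds the letters once and that of H2-Eb1 at 2 places, one on each strand. The H2-Aa and H2-Eb1 ratios above were 2.21 and 2.07. Of the 10 listed class II genes with a window, 7 hold GATTGG on either strand, and so do 16.1% of all 32851 windows. A match is a description of the letters and not a bound site.

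Some MHC class I genes, which present peptides to CD8 T cells, were higher too. H2-K1, a classical class I heavy chain, was at 1463 and 2288 CPM, a ratio of 1.56 (1.52 to 1.61), while H2-D1 was at 1779 and 2016 CPM and B2m, the shared light chain, at 3571 and 4442 CPM, neither past the fold. The nonclassical genes H2-Q6 and H2-Q7 had ratios of 2.64 (2.16 to 3.24) and 2.48 (2.20 to 2.79), and since they are close copies, reads could be split between them. Of the list, 5 of 20 were higher and none lower, with a median of 0.27.

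Of the interferon-gamma response list 7 of 22 genes were higher, and of the type I interferon list 1 of 28. Gbp5, a guanylate-binding protein, was at 68.3 CPM (61.4 to 75.7) in PBS and 145 CPM (135 to 156) in UDSP-Hep, a ratio of 2.12 (1.87 to 2.41). Cd274, which encodes the checkpoint ligand PD-L1, was at 128 and 267 CPM, a ratio of 2.09 (1.90 to 2.29). Iigp1, an immunity-related GTPase, was at 24.8 and 83.4 CPM, the largest ratio of the list at 3.36 (2.76 to 4.12), and Gbp4 was at 58.1 and 106 CPM. None of the interferon-gamma list was lower past the fold, 15 were not past it, of which 6 had ratios under 1, and the list had a median of 0.30. The chemokine genes Cxcl9, at 306 and 449 CPM, and Cxcl10, at 305 and 371 CPM, were not past the fold. In the same cells 1 of 28 measured type I genes was higher, Ifi44, and none was lower, but 25 of 28 had ratios under 1 and the median was -0.25. Ifitm3, an antiviral membrane protein, was at 3535 and 2504 CPM, and Ifi204, a DNA sensor, was at 723 and 523 CPM. The limit on Ifit UMIs chose the cells on the type I side of this comparison. The summed NK cell markers were also higher in UDSP-Hep, as given above, and their part in the result was not tested. Iigp1 UMIs were in 3.55 and 12.5% of thinned cells and in 11.02 and 12.8% of thinned T cells. Gbp5 UMIs were in 14.9 and 21.7% of thinned cells, against 9.4 and 15.4% of T cells. Those of Cd274 were in 21.6 and 39.04%, against 18.7 and 29.1% of T cells. The Iigp1 share was thus not above that of T cells in either library. The T cell shares of Gbp5 and Cd274 were also higher in UDSP-Hep, and the part of this background was not tested. Without the cells that carried lymphoid or neutrophil RNA, the Gbp5 ratio was 2.28 (2.004 to 2.60) and the Iigp1 ratio 3.19 (2.61 to 3.93).

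The letters of the interferon-stimulated response element were looked for in the promoters, and one gene of each response is shown. Gbp5 lies at chr3:142493978-142522344 on the plus strand, and Rsad2, which encodes the antiviral enzyme viperin, at chr12:26442746-26456452 on the minus strand of GRCm38. Their RefSeq windows on GRCm38.p6 cover chr3:142496684-142496983, plus strand, and chr12:26456403-26456702, minus strand. Capitals mark the element's core, which was searched as GAAA followed after 2 bases of any kind by GAAA, on either strand.
Gbp5: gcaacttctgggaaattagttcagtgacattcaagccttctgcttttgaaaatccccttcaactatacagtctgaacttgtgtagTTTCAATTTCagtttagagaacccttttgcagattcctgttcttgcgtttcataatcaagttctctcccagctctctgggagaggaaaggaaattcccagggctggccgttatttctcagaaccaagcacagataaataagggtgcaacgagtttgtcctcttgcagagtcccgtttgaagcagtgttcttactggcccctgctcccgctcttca
Rsad2: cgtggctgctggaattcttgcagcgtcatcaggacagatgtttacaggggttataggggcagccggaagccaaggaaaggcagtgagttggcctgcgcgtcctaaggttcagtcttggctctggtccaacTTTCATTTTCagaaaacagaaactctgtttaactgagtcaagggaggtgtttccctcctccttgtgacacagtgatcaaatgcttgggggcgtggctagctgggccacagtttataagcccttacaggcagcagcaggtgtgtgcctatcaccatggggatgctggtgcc
In both windows the core reads on the strand opposite to the one printed, and the RefSeq start of Gbp5 lies inside the GENCODE span of the gene. The letters are in the windows of 11 of 16 interferon-gamma list genes and of 11 of 21 type I list genes that have one, and in 3.44% of all windows. The Gbp5 and Rsad2 windows both match the core pattern, but their letters differ within the 2 bases of any kind. In the low-interferon cells the Gbp5 ratio was 2.12, and Rsad2 was at 79.1 and 86.3 CPM, a ratio of 1.09 (0.952 to 1.25).

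Some inflammatory transcripts were higher, with Il1b, which encodes interleukin-1 beta, the most abundant of those past the fold. It was at 1163 CPM (1134 to 1193) in PBS and 2739.5 CPM (2694 to 2785) in UDSP-Hep, a ratio of 2.36 (2.29 to 2.43). Ptgs2, the cyclooxygenase of prostaglandin synthesis, was at 247 and 544 CPM, a ratio of 2.21 (2.06 to 2.36), and the feedback inhibitor of NF-kappaB Tnfaip3 was at 181 and 305 CPM. The interleukin-1 receptor antagonist Il1rn was at 364 and 493 CPM and Cebpb, a myeloid transcription factor, at 2025 and 2437 CPM, neither past the fold. Of the list, 5 of 21 were higher and none lower, with a median of 0.35. Il1b UMIs were in 57.1 and 80.6% of thinned cells, and in 7.13 and 21.5% of thinned T cells, so the Il1b background was also higher in the UDSP-Hep library, and its part in the result was not tested. Tnf, with 111 and 115 UMIs in all, and the fever cytokine gene Il6, with 178 and 220 UMIs, were low in both libraries.

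Immediate early genes, which respond within minutes to many stimuli and also to tissue dissociation, were higher together. Nr4a1, an orphan nuclear receptor, was at 484 and 805 CPM, a ratio of 1.67 (1.58 to 1.75). Fos was at 1457 and 2258 CPM, a ratio of 1.55 (1.51 to 1.60), and Fosb, its relative in the AP-1 complex, had a ratio of 2.78 (2.49 to 3.10). All 22 listed genes had ratios above 1, 9 of 22 past the fold, with a median of 0.47. Of the chaperones, none of 16 was higher past the fold, against 7.5% of all genes, and Hspa8 was at 1731 and 1961 CPM. The rule itself capped Hspa1a and Hspa1b, of which Hspa1a was at 111 and 32.1 CPM and Hspa1b at 140.2 and 42.8 CPM. This cap alone left out 85 PBS cells and 3 UDSP-Hep cells. The chaperone values may therefore be shaped by the rule, and they cannot serve as a contrast to the immediate early genes.

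**Figure D2:**
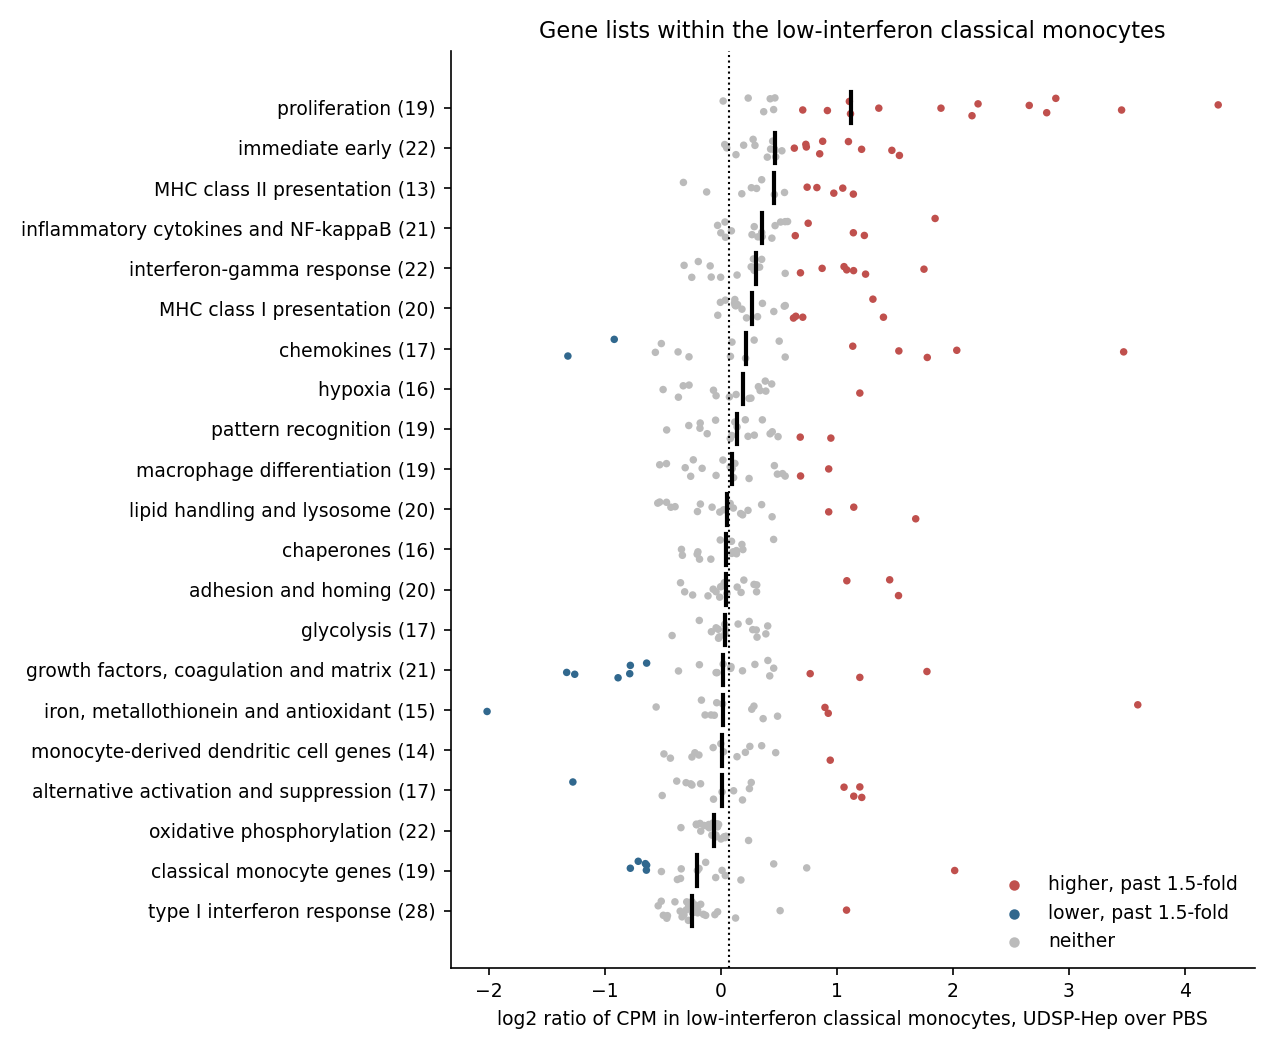
Each point is a gene of 1 of 21 lists (y axis, number measured in brackets), at its log2 ratio of CPM in the low-interferon cells, UDSP-Hep over PBS (x axis); black bars are list medians, the dotted line is the median of all genes, 0.07, and colour marks genes past the fold of 1.5. The MHC class II, immediate early and inflammatory medians lie at 0.46, 0.47 and 0.35, the type I interferon median at -0.25, and Hspb1, with 29 and 0 UMIs, is not drawn.

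Chemokine genes went both ways. The monocyte chemoattractant genes Ccl7, at 569.8 and 301 CPM, and Ccl12, at 128 and 51.3 CPM, were lower, with ratios of 0.528 (0.497 to 0.562) and 0.400 (0.346 to 0.462). Ccl2, the main ligand of CCR2, was at 963 and 650.2 CPM, a ratio of 0.676 (0.646 to 0.706), just short of the fold. Cxcl16, a membrane-bound ligand of CXCR6, was higher at 79.9 and 175 CPM, a ratio of 2.20 (1.96 to 2.47). The neutrophil attractant gene Cxcl3 was at 11.7 and 48.0 CPM, of which 3 cells held 75.8 and 69.6%. Ccl5, which T and NK cells make in quantity, was at 99.2 and 340.1 CPM, a ratio of 3.43 (3.11 to 3.79), and at 2.94 (2.57 to 3.38) without the cells that carried lymphoid or neutrophil RNA. Of 17 measured chemokines 5 were higher and 2 lower, and the median was 0.21, which changed sign to -0.03 without those cells. Ccl2, Ccl7 and Ccl12 are close relatives in sequence and their short transcripts could share reads.

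Genes of the classical monocyte programme were partly lower, although the rule genes Ly6c2, at 2176 and 2273 CPM, and Ccr2, at 1336 and 1327 CPM, hardly differed. F13a1, the A chain of coagulation factor XIII, was at 570.0 CPM (549.8 to 591) in PBS and 332 CPM (316 to 348) in UDSP-Hep, a ratio of 0.582 (0.548 to 0.617). Vcan was at 322 and 196 CPM, a ratio of 0.610 (0.564 to 0.660), and Fn1, fibronectin, at 1644 and 1054 CPM, a ratio of 0.641 (0.620 to 0.663). Mgst1, a glutathione transferase, and Ifitm6 had ratios of 0.640 (0.591 to 0.694) and 0.636 (0.597 to 0.678). Plac8 at 4936 and 4781 CPM and Chil3 at 1285 and 1293 CPM hardly differed between the libraries, and S100a4, a calcium-binding protein, at 2419 and 1694 CPM was not past the fold. In all, 5 of 19 were lower and 1 was higher, with a median of -0.20. The one higher gene was Ly6i, of the same Ly6 cluster on chromosome 15 as Ly6c2, at 92.3 and 373 CPM, a ratio of 4.04 (3.66 to 4.47). Ly6i UMIs were in 14.4 and 35.8% of thinned cells and in 1.40 and 3.55% of T cells, and since Ly6 genes resemble each other, its count may hold reads of a neighbour. Without the cells that carried lymphoid or neutrophil RNA, the Vcan ratio was 0.671 (0.619 to 0.727), no longer past the fold, and 2 of the list were lower.

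Secreted factors and matrix genes also went both ways. Spp1, osteopontin, was at 365 CPM (349 to 382) in PBS and 151 CPM (140.2 to 162) in UDSP-Hep, a ratio of 0.413 (0.379 to 0.449), and 3 cells held 37.9 and 34.3% of its UMIs. Hbegf, a ligand of the EGF receptor, was at 73.8 and 29.3 CPM, a ratio of 0.398 (0.327 to 0.481), and the matrix metalloproteinase genes Mmp8 and Mmp19 had ratios of 0.541 (0.457 to 0.638) and 0.580 (0.508 to 0.660). Against these, Vegfa, the angiogenic growth factor, was at 92.2 and 211 CPM, a ratio of 2.29 (2.06 to 2.56). The membrane-bound metalloproteinase gene Mmp14 was at 41.6 and 70.9 CPM, a ratio of 1.70 (1.44 to 2.02), and Thbs1, thrombospondin, at 1852 and 2538 CPM, a ratio of 1.37 (1.33 to 1.41) that was not past the fold. Of the list, 3 of 21 were higher and 6 lower, with a median of 0.02, or -0.03 under median-of-ratios scaling.

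Metabolic lists had medians near 0, which turned negative for glycolysis under median-of-ratios scaling. None of 17 glycolysis genes and none of 22 oxidative phosphorylation genes was past the fold, with medians of 0.03 and -0.06. Gapdh was at 1636 and 1675 CPM and Cox4i1, of respiratory complex IV, at 981 and 929 CPM. Iron storage differed by chain: Fth1, the ferritin heavy chain, was at 3981 and 7409 CPM, a ratio of 1.86 (1.83 to 1.89), and Ftl1, the light chain, at 3127 and 3157 CPM, a ratio of 1.01 (0.988 to 1.03). Both ferritin genes have processed copies in the genome with which reads could be shared. Apoe, a lipid carrier of macrophages, was at 725 and 1379 CPM, a ratio of 1.90 (1.83 to 1.98), and Abca1, a cholesterol exporter, at 14.6 and 46.6 CPM, while the lysosomal protein gene Psap was at 5341 and 6007 CPM. Apoe UMIs were in 52.8 and 68.7% of thinned cells and in 3.67 and 10.6% of thinned T cells. Its background was thus also higher in the UDSP-Hep library, and the part of it in the ratio was not tested. Arg1, arginase, was at 353 and 271 CPM, a ratio of 0.767 (0.716 to 0.823), not past the fold.

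Among the 12 genes ranked highest by the bound nearest to 1, several were not shared by most of the cells. S100a9 was at 1.51 and 397 CPM, S100a8 at 2.84 and 360.1 CPM and Retnlg at 0.189 and 97.7 CPM, and these are abundant neutrophil genes. The summed neutrophil markers were 168 and 1080.3 CPM in the same cells, of which Csf3r gave 157 and 189 CPM. In UDSP-Hep, 3 cells held 91.9% of the S100a9 UMIs, and the share of thinned cells with one was 5.96%, below the 7.09% of T cells. The UDSP-Hep shares of S100a8 and Retnlg were above those of T cells, at 6.54 against 3.86% and 0.962 against 0.730%. The S100a9 ratio was 262 (133 to 609), 8.25 (3.92 to 20.02) without the cells that carried lymphoid or neutrophil RNA, and the log2 ratio of 8.04 became 0.46 when every cell was thinned before the rule. S100a8 had a log2 ratio of 6.99, which became 0.91 with thinning before the rule. Tpm3-rs7, a copy related to the tropomyosin gene Tpm3, was at 10.2 and 82.0 CPM, with UMIs in 3.01 and 16.9% of thinned cells and 2.16 and 17.1% of T cells, so T cells had the same difference, and its reads may belong to Tpm3. Serpinb9, an inhibitor of granzyme B, was at 13.6 and 66.1 CPM, Il2rb, an interleukin-2 receptor chain, at 22.5 and 73.8 CPM, and AW112010, a long noncoding RNA, at 222 and 626 CPM. T cells express these 3 strongly, with UMIs of Serpinb9 in 37.8 and 43.7%, of Il2rb in 89.3 and 87.5% and of AW112010 in 95.9 and 91.3% of thinned T cells. Without the cells that carried lymphoid or neutrophil RNA the ratios of Serpinb9, Il2rb and AW112010 were 3.08 (2.10 to 4.59), 2.16 (1.35 to 3.51) and 2.79 (2.58 to 3.02).

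Ccrl2 and Gatm were also among the 12. Ccrl2, an atypical receptor that binds chemerin, was at 67.6 and 233 CPM, a ratio of 3.45 (3.06 to 3.896), with UMIs in 13.3 and 34.4% of thinned cells and 10.9 and 12.0% of T cells, so the PBS share was close to that of T cells. Gatm, an enzyme of creatine synthesis, was at 106 and 306 CPM, a ratio of 2.87 (2.61 to 3.17), with UMIs in 17.6 and 39.0% of thinned cells and 1.30 and 2.61% of T cells. At the lower end, Gsr, glutathione reductase, was at 803 and 498 CPM, a ratio of 0.621 (0.591 to 0.652), with UMIs in 75.9 and 60.8% of thinned cells. Wfdc17, a small secreted myeloid protein, was at 1130.1 and 714 CPM, a ratio of 0.632 (0.606 to 0.659), with UMIs in 85.8 and 71.7%, and the epithelial-type secreted protein gene Dmkn and the membrane protein gene Emp1 had ratios of 0.471 (0.396 to 0.558) and 0.573 (0.5004 to 0.654).

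Proliferation genes were low and rested on few cells. Of 19 measured, 13 were higher past the fold, with a median of 1.12, but Top2a, a topoisomerase of dividing cells, was at 3.97 and 18.5 CPM and 3 cells held 84.2% of its UMIs in UDSP-Hep. Mki67 UMIs were in 0.177 and 1.35% of thinned cells and in 13.1 and 5.21% of T cells. Without the cells that carried lymphoid or neutrophil RNA, 14 were measured, 2 of the list were higher, 1 was lower and the median was 0.19. Pcna, a DNA clamp, was at 124 and 125 CPM.

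The cells were mixed within each library. Variation was described by the Fano factor, the variance of a gene's UMIs over its mean in cells thinned to 3000 UMIs (564 and 520 cells), where counting alone gives about 1, and its median over 3863 genes was 1.12 and 1.13. By the smaller value of the 2 libraries, Cd74 ranked at the top, with 29.0 and 24.3, and H2-Aa had 15.2 and 14.8, H2-Ab1 15.4 and 12.9 and H2-Eb1 12.6 and 11.9. Chemokine genes stood beside them, with 19.6 and 17.5 for Ccl7, 18.7 and 16.7 for Cxcl10, 15.3 and 15.5 for Ccl4 and 12.0 and 14.3 for Cxcl2. Spp1 had 38.5 and 15.3, Arg1 14.5 and 15.1, Thbs1 12.96 and 16.2 and Fth1 16.8 and 26.4. Gzma, a granzyme of NK and T cells, was also in the top 15, at 29.3 and 14.4, and 1 PBS cell held 81.2% of its UMIs there. The remaining 2 of the 15 were Malat1 and Actb, which are abundant in most cells.

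The difference in class II between libraries lay in the number of cells with the genes and in their level. In thinned cells, H2-Ab1 was at 0 UMIs in 62.9 and 38.3% of the cells and at 8 or more in 13.1 and 29.4%. In cells with at least 1 UMI the mean was 7.89 and 10.0 UMIs. Il1b was at 0 in 42.9 and 19.4% and at 8 or more in 17.6 and 40.4%. Chil3 hardly differed, at 0 in 41.0 and 42.3% and at 8 or more in 20.7 and 22.1%, while Vcan was at 0 in 53.5 and 69.2%. Cxcl9, a chemokine induced by interferon-gamma, was at 0 in most cells of both libraries, 84.0 and 76.7%, and so was Arg1, 84.2 and 84.6%.

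**Figure D3:**
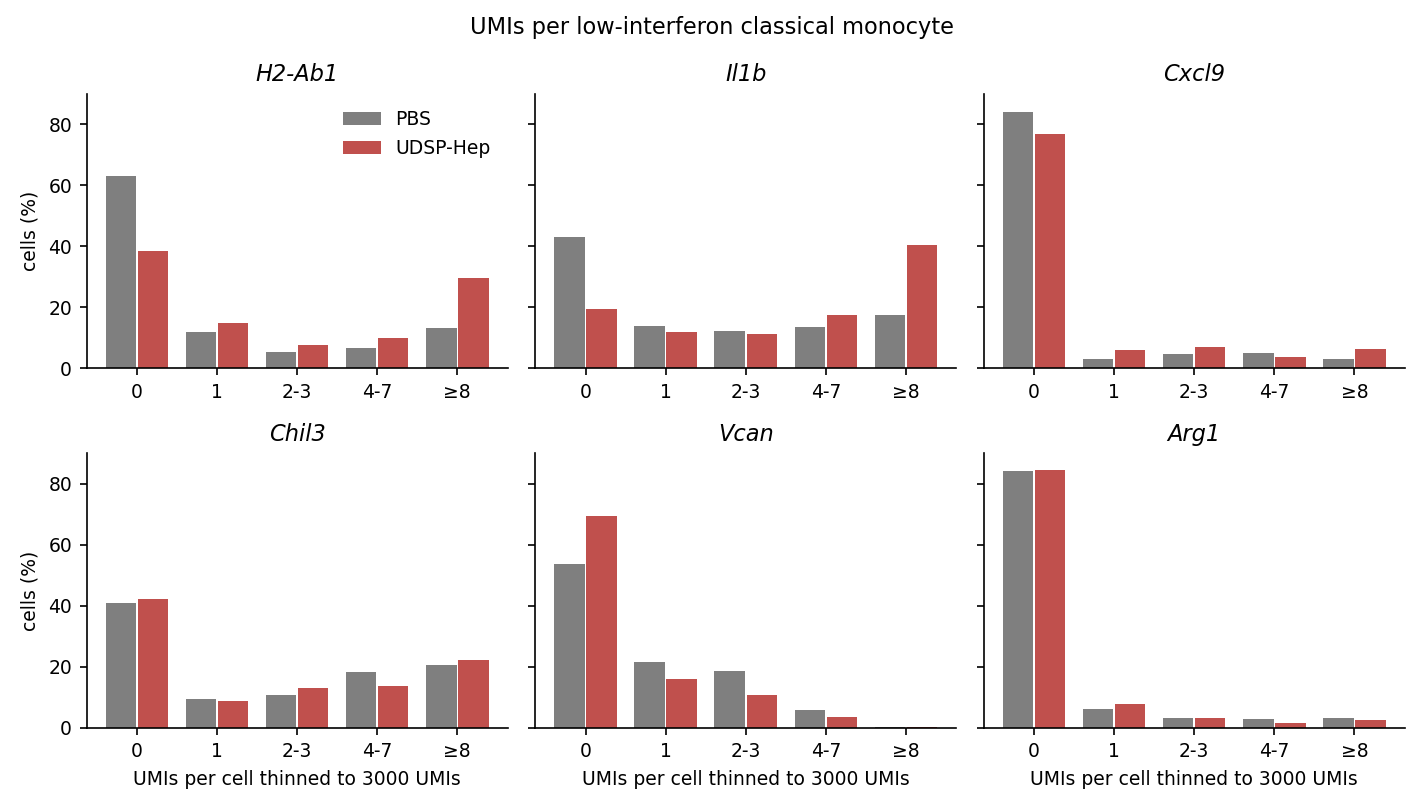
Bars give the percent of low-interferon cells (y axis) with 0, 1, 2 to 3, 4 to 7 or 8 and more UMIs of 6 genes (x axis, UMIs per cell after thinning to 3000) in PBS (564 cells, grey) and UDSP-Hep (520 cells, red). Cells without H2-Ab1 or Il1b were fewer in UDSP-Hep, cells without Vcan were more, and the Chil3 bars nearly match.

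Class II and the blood monocyte programme ran in opposite directions among the cells of each library. Across thinned cells of 1 library, Spearman's rho was -0.397 and -0.513 for H2-Ab1 and Fn1, and -0.258 and -0.464 for Chil3 and H2-Ab1. It was 0.227 and 0.435 for Chil3 and Fn1, and 0.124 and 0.330 for H2-Ab1 and Il1b. The points share a library and a fixed depth, and H2-Ab1 with Fn1 had the rho farthest from 0 in both libraries among all pairs of 10 genes. Cells with a UMI of H2-Ab1 were 209 of 564 in PBS and 321 of 520 in UDSP-Hep, some of which hold 1 UMI as free RNA could give. Mean UMIs of Fn1 per thinned cell were, with against without H2-Ab1, 3.35 against 5.97 in PBS and 2.13 against 5.19 in UDSP-Hep. Those of Chil3 were 3.01 against 4.76 in PBS and 2.78 against 7.02 in UDSP-Hep, and those of Hp, haptoglobin, 0.603 against 1.80 in PBS and 0.844 against 1.80 in UDSP-Hep. Cells with H2-Ab1 had the lower mean of each in both libraries. Plac8 differed little, with 14.1 against 16.9 in PBS and 14.7 against 16.6 in UDSP-Hep, and so did the rule gene Ccr2, with 4.05 against 4.18 in PBS and 3.903 against 4.19 in UDSP-Hep.

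Other genes were higher in the cells with H2-Ab1 in both libraries. Ly6i had means of 0.612 against 0.166 in PBS and 1.69 against 0.251 in UDSP-Hep, Cd209a, a lectin known from monocyte-derived dendritic cells, 0.220 against 0.0676 in PBS and 0.215 against 0.0402 in UDSP-Hep, and Cd274 0.579 against 0.293 in PBS and 0.9502 against 0.513 in UDSP-Hep. Mrc1, the mannose receptor, had means of 0.675 against 0.254 in PBS and 0.561 against 0.256 in UDSP-Hep. Il1b had 4.88 against 3.07 in PBS and 10.3 against 5.02 in UDSP-Hep, and its ratio of UDSP-Hep over PBS was 2.11 (1.96 to 2.26) in cells with H2-Ab1 and 1.63 (1.499 to 1.78) in those without. The higher Il1b level was thus present on both sides of the split. Fth1 likewise had ratios of 1.55 (1.49 to 1.62) and 1.60 (1.52 to 1.68), and Apoe of 1.60 (1.46 to 1.76) and 1.82 (1.63 to 2.03).

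Several secreted factors differed between the libraries by other ratios in cells with and without H2-Ab1, though the sides of the split hold different shares of the cells in each library. For Ccl7 the ratio of UDSP-Hep over PBS was 0.304 (0.259 to 0.356) in cells with H2-Ab1 and 1.22 (1.01 to 1.47) in cells without. For Ccl2 it was 0.406 (0.365 to 0.452) and 1.37 (1.21 to 1.55), for Spp1 0.207 (0.168 to 0.254) and 0.778 (0.572 to 1.05), and for Arg1 0.492 (0.411 to 0.588) and 1.29 (1.04 to 1.61). These genes have high Fano factors and the intervals cover counting error only, so where the difference lies was not tested. When the cells were split by Chil3 instead (with a UMI in 333 of 564 and 300 of 520 cells), the ratios with and without Chil3 were 0.505 (0.411 to 0.618) and 0.635 (0.545 to 0.739) for Ccl7, and 0.599 (0.533 to 0.672) and 0.917 (0.816 to 1.03) for Ccl2. For Spp1 they were 0.691 (0.553 to 0.860) and 0.176 (0.129 to 0.236), and for Arg1 1.11 (0.880 to 1.40) and 0.659 (0.552 to 0.786), so the lower ratio of both was in cells without Chil3. In PBS, cells with H2-Ab1 had the higher means of these 4 genes, as for Ccl7 with 2.37 against 0.775 in PBS and 0.720 against 0.945 in UDSP-Hep, and in UDSP-Hep they did not for Ccl7, Ccl2 and Arg1. F13a1 was lower on both sides, at 0.780 (0.641 to 0.9497) and 0.715 (0.624 to 0.819), and Vcan was at 0.539 (0.425 to 0.681) and 0.844 (0.704 to 1.01).

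**Figure D4:**
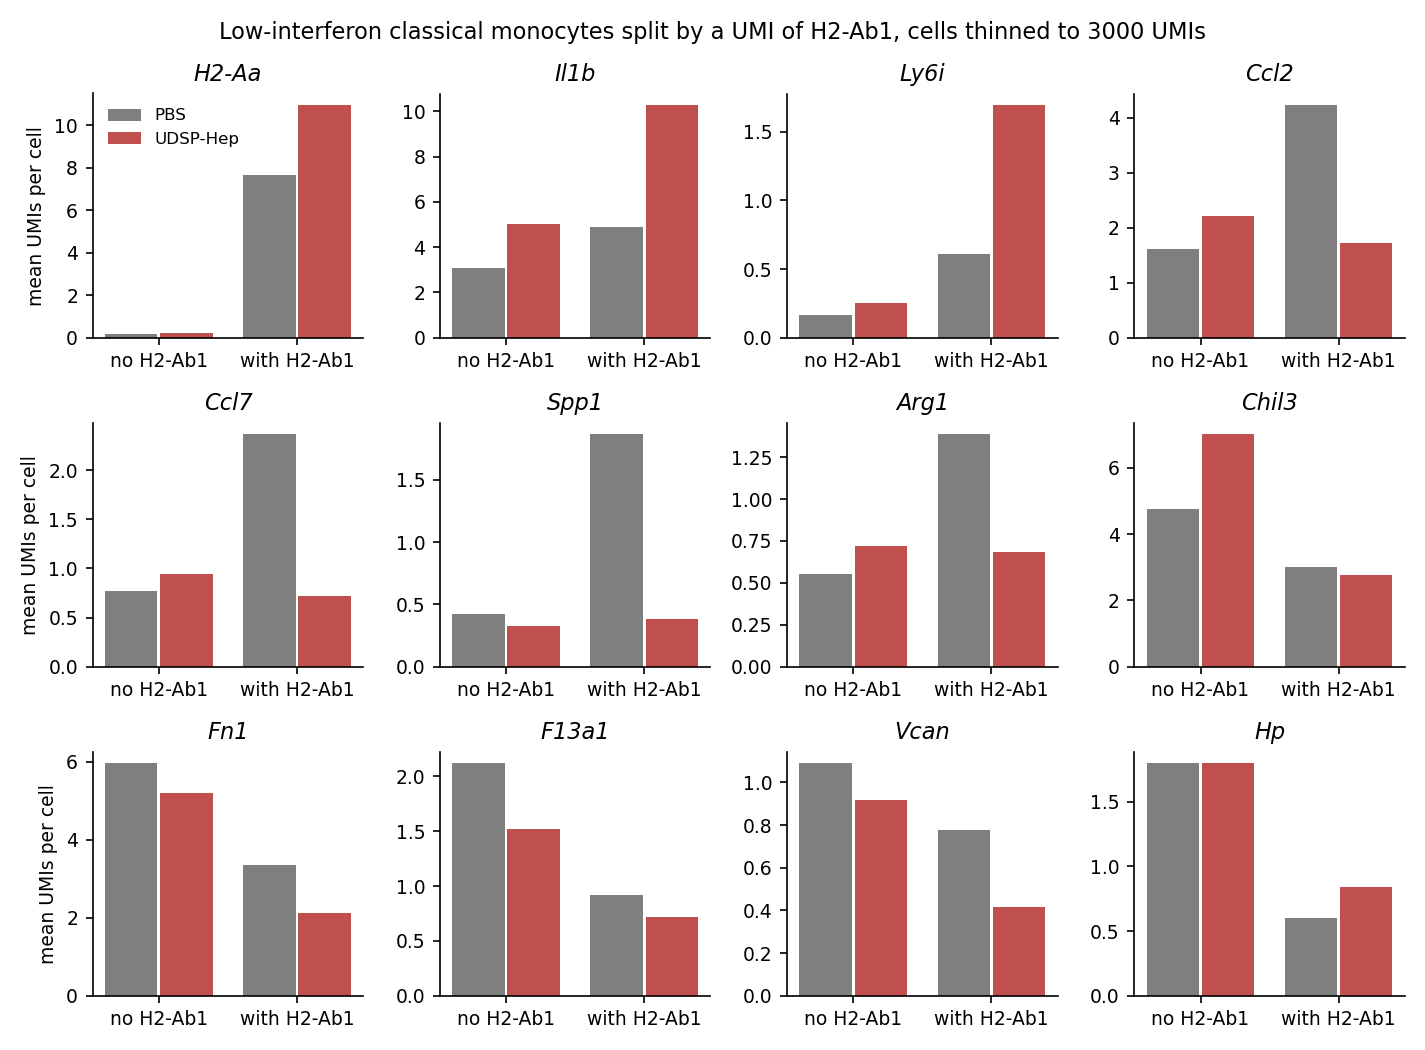
Bars give the mean UMIs per cell (y axis, cells thinned to 3000 UMIs, scale differs by gene) of 12 genes in low-interferon cells without and with a UMI of H2-Ab1 (x axis), in PBS (355 and 209 cells, grey) and UDSP-Hep (199 and 321 cells, red), with no error bars. Ccl2, Ccl7, Spp1 and Arg1 stand highest in the PBS cells with H2-Ab1, and Fn1, F13a1, Vcan and Hp are lower in cells with H2-Ab1 in both libraries.

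The cells were then set against 3 populations most like them. Genes were counted as higher or lower only when they passed the fold of 1.5 with an interval that excluded 1 in both libraries. The populations were defined by UMIs of rule genes, so these contrasts describe the gates and test nothing. Each population also met the rule's other conditions, except that Ly6c2 and Ccr2 were free for the Ace and Treml4 cells and for the C1q cells. The limit on Ifit UMIs was kept for both of these, so cells rich in Ifit UMIs are in neither.

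Against classical monocytes with 5 or more Ifit UMIs (112 and 74 cells), 166 of 7545 genes were higher in the low-interferon cells (2.2%) and 247 lower (3.27%). Type I interferon genes led the lower side beyond the 3 that defined the gate, with 25 of 28 lower and medians of -1.26 and -1.40 on the log2 scale, against 0.19 and 0.14 for all genes. Rsad2 was at 79.1 against 1468 CPM in PBS and 86.3 against 1133 CPM in UDSP-Hep. Isg15 was at 41.6 against 192 CPM in PBS and 59.3 against 317 CPM in UDSP-Hep, Oasl1, of the oligoadenylate synthetase family, at 30.8 against 256 CPM in PBS and 29.7 against 260.1 CPM in UDSP-Hep, and Usp18, which removes ISG15, at 57.1 against 303 CPM in PBS and 39.3 against 287 CPM in UDSP-Hep. Cmpk2, a mitochondrial nucleotide kinase, and the nucleotidase gene Nt5c3 had ratios of 0.103 and 0.0970, and of 0.201 and 0.171. Ifit3b and Ifit1bl1, relatives of the gating genes with which they may share reads, had ratios of 0.0326 and 0.0326, and of 0.0612 and 0.0441. Interferon-gamma list genes were lower too, 15 of 21. Class II genes were not past the fold in either direction, 0 of 11, with medians of -0.12 and -0.09.

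Higher in the low-interferon cells than in the Ifit cells were Cbfa2t3, a transcriptional corepressor, at 91.6 against 28.8 CPM in PBS and 80.3 against 29.2 CPM in UDSP-Hep, and Lpl, lipoprotein lipase, at 159 against 71.5 CPM in PBS and 115 against 24.1 CPM in UDSP-Hep. Ifngr1, the ligand-binding chain of the interferon-gamma receptor, was at 384 against 224 CPM in PBS and 514 against 303 CPM in UDSP-Hep, and Spp1 at 365 against 209 CPM in PBS and 151 against 34.3 CPM in UDSP-Hep. Fam102b, Gpcpd1, Ccdc88c and B4galnt1 had ratios between 1.74 and 3.52 in both libraries. With every cell thinned to 3000 UMIs before the rule, 19 genes were higher and 125 lower, and 47 and 28 cells then formed the Ifit population.

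Against the Ace and Treml4 cells (310 and 600 cells), 413 of 8100 genes were higher (5.1%) and 406 lower (5.01%). Growth factor, coagulation and matrix genes were higher, 14 of 19, with medians of 1.67 and 1.49 against 0.01 and 0.01 for all genes, and 9 of 15 chemokines and 11 of 17 glycolysis genes were higher with none lower. Arg1 was at 353 against 21.9 CPM in PBS and 271 against 31.4 CPM in UDSP-Hep, and Ccl7 at 569.8 against 52.4 CPM in PBS and 301 against 37.8 CPM in UDSP-Hep. Mrc1 was at 171 against 28.9 CPM in PBS and 184 against 15.1 CPM in UDSP-Hep, the endocytic adaptor gene Dab2 at 239.8 against 22.7 CPM in PBS and 246 against 19.6 CPM in UDSP-Hep, and C3ar1, the receptor for complement C3a, at 128 against 14.9 CPM in PBS and 149 against 22.5 CPM in UDSP-Hep. The ratios of Ccl12 were 25.9 and 16.5, those of Emp1 10.9 and 6.99, and those of AA467197 12.0 and 5.87. On the lower side stood Ear2, a ribonuclease gene, at 17.8 against 243 CPM in PBS and 15.7 against 301 CPM in UDSP-Hep, Adgre4, an adhesion receptor, at 35.95 against 466 CPM in PBS and 67.8 against 676 CPM in UDSP-Hep, Spn, which encodes CD43, at 28.8 against 151 CPM in PBS and 31.3 against 261 CPM in UDSP-Hep, and Eno3, an enolase, at 2.27 against 71.0 CPM in PBS and 2.72 against 124 CPM in UDSP-Hep. The ion cotransporter gene Slc12a2, the Notch target Hes1, Grk3 and the prostaglandin dehydrogenase gene Hpgd were lower as well, with ratios of 0.0229 to 0.171 in the PBS library. Of these, Ear2, Spn and Eno3 are on the list of nonclassical monocyte markers.

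Against cells with 10 or more C1q UMIs (206 and 265 cells), 562 of 8297 genes were higher (6.77%) and 510 lower (6.15%). The classical monocyte list was higher almost in full, 17 of 18, with medians of 1.96 and 1.43. Hp was at 429.7 against 13.1 CPM in PBS and 377 against 54.1 CPM in UDSP-Hep, and Ifitm6 at 487 against 36.8 CPM in PBS and 310.2 against 20.96 CPM in UDSP-Hep. Chil3 was at 1285 against 255 CPM in PBS and 1293 against 250.4 CPM in UDSP-Hep. Cd177, Nhsl2, Pdlim1 and Ccdc88c were higher by ratios of 7.78 to 26.5 in PBS. Macrophage differentiation genes were lower, 15 of 20, and so were lipid and lysosome genes, 15 of 20, with medians of -1.50 and -1.44. Ccl8, a chemokine of tissue macrophages, was at 54.7 against 2834 CPM in PBS and 38.3 against 1055 CPM in UDSP-Hep, Vcam1 at 3.78 against 239 CPM in PBS and 5.83 against 59.97 CPM in UDSP-Hep, and the tetraspanin gene Cd63 at 45.4 against 335 CPM in PBS and 31.5 against 274 CPM in UDSP-Hep. Retnla, Igf1, Cd72, Pf4 and Cd81 were lower too, with ratios of 0.00922 to 0.12 in PBS. Class II chains were also lower than in the C1q cells, with H2-Aa at 1158 against 4547 CPM in PBS and 2555 against 5681 CPM in UDSP-Hep.

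The higher class II level in UDSP-Hep was compared with the same contrast in these populations. H2-Aa was at 1158 and 2555 CPM in the low-interferon cells, at 1373 and 3202 in the Ifit cells, at 1210.2 and 878 in the Ace and Treml4 cells and at 4547 and 5681 in the C1q cells. The log2 ratio in the low-interferon cells minus that in the Ace and Treml4 cells was 1.60 (1.52 to 1.69), minus that in the C1q cells 0.82 (0.77 to 0.87), and minus that in the Ifit cells -0.08 (-0.18 to 0.02). The low-interferon and Ifit cells thus had the same direction and nearly the same ratio, and the Ace and Treml4 cells had the opposite direction. Over the class II list the medians were 0.46, 0.41, -0.46 and 0.06 in the low-interferon, Ifit, Ace and Treml4, and C1q cells. Il1b was higher in all 4 populations, at 985 and 2787 CPM in the Ifit cells, 1457 and 2185 in the Ace and Treml4 cells and 945 and 2312 in the C1q cells. For Cd274 the log2 ratio in the low-interferon cells exceeded that in the Ifit cells by 1.17 (0.90 to 1.43), and for Gbp5 by 1.00 (0.70 to 1.31). For Spp1, the log2 ratio in the Ace and Treml4 cells was 2.17, opposite to that of the low-interferon cells. These intervals cover counting error in 1 library per group.

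**Figure D5:**
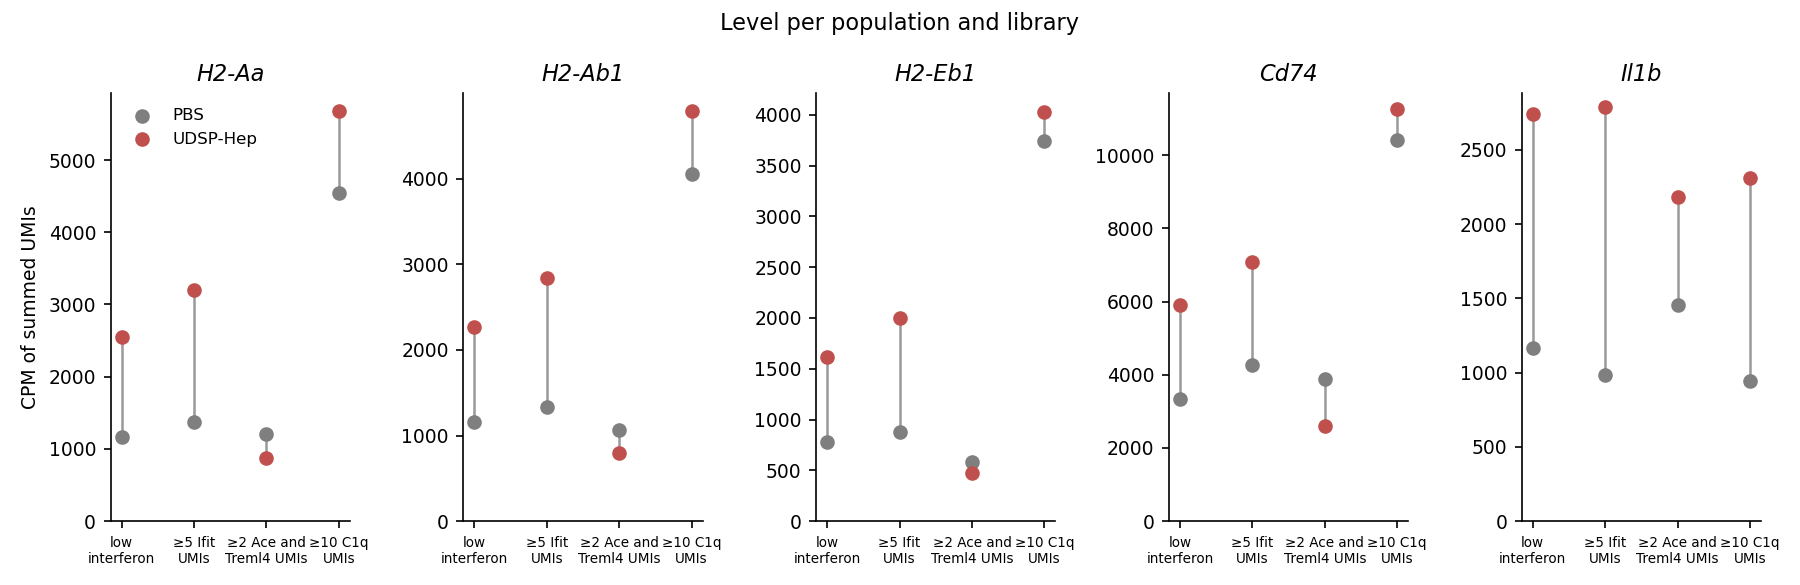
Points give CPM of summed UMIs (y axis, scale differs by gene) of 4 class II genes and Il1b in 4 populations (x axis) in PBS (grey) and UDSP-Hep (red), with no error bars, and a line joins the libraries of a population. In the low-interferon and Ifit cells the red class II points lie above the grey, in the Ace and Treml4 cells below, and Il1b is higher in UDSP-Hep in all 4.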

How the data were processed

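Whole-number UMI counts, one matrix per library with 32285 genes, were deposited by the authors with the barcodes and gene names. Cell Ranger 7.0.0, mm10 and Seurat, the last with no version, are named per the submitters' processing notes. Barcodes with fewer than 200 genes, fewer than 500 UMIs or 10% or more mitochondrial UMIs were removed. The members, gene lists and alternatives were chosen with earlier results of these data known.

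UMIs were summed over the cells of a library and given as CPM with exact Poisson intervals. Ratios have exact conditional binomial intervals, shares Clopper-Pearson intervals, ratios of shares Katz log intervals, and differences of log2 ratios normal intervals from the counts. All are 95% and cover counting error only. Thinning drew 3000 UMIs per cell without replacement and left out shallower cells (17 and 8 of the chosen). The rule for higher and lower genes was tested on simulated Poisson counts of the summed libraries. These hold no variation between cells, tumours or libraries, so the simulation cannot show how often such variation passes the rule. Scrublet in scanpy 1.11.5 marked 0 of 7134 and 0 of 7675 cells, so it had not worked, no doublets were removed, and the 407 and 471 highest scores were left out as an alternative. Between libraries, the 12 highest and 12 lowest genes by the bound nearest to 1, among genes with 50 summed UMIs and 50 CPM, were named. Against each population 8 and 8 were named by the weaker library, and 15 by Fano factor, with list genes as examples; some named genes are not reported here. Alternatives were the filter on cells, doublets, depth, the limits of the rule on Ly6c2, C1q and Ifit, equal weight of cells, scaling and the minimum of UMIs. Of the gene identifiers, 32158 matched GENCODE M21. Python 3.11.15 with numpy 2.4.6 and scipy 1.17.1 was used.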

Additional observations from a re-analysis of the deposited data

How the results depend on the processing

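No paired analysis was possible because no group had more than 1 library. The ratio of the share of kept cells, 0.845, moved to 0.953 with every cell thinned to 3000 UMIs and to 0.969 among Lyz2 cells, and the low-interferon share of classical monocytes, 1.05, to 1.10 with the Ifit limit at 2. The 575 higher genes became 368 with thinning before the rule, 337 with the chosen cells thinned, and 228 with at least 200 summed UMIs, and the 153 lower genes became 63 with at least 200, where fewer genes were tested. Under median-of-ratios scaling 480 were higher and 222 lower, a shift of all log2 ratios by -0.05. Against the Ifit cells, the 166 higher genes became 19 and the 247 lower genes 125 with thinning, and 106 were higher with the Ifit limit at 2; against the C1q cells, 327 were lower with thinning. None of the 24 genes named between libraries changed its direction under the alternatives in which it had at least 20 summed UMIs. Retnlg, of which 3 UDSP-Hep cells held 99.4% of the UMIs, had too few to be assessed without the 3 richest cells. List medians close to 0 did change direction: the chemokine median of 0.21 became -0.03 without the cells that carried lymphoid or neutrophil RNA, and chaperones went from 0.04 to -0.15 with thinning before the rule. The alternatives include 2 chosen after seeing the data: leaving out cells that carried lymphoid or neutrophil RNA (442 higher and 165 lower genes), and leaving out the 3 richest cells of each gene (527 and 170). Depth limits low genes, and no difference between the treatments can be told apart from a difference between 2 libraries.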

Other observations

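Of the pattern recognition list 2 of 19 measured genes were higher past the fold and none was lower, against 7.5% higher and 1.89% lower of all genes. Tlr2, a receptor for bacterial lipoproteins, was at 167 and 321 CPM, a ratio of 1.93 (1.78 to 2.09), and Clec4n, which encodes the fungal receptor Dectin-2, at 163 and 262 CPM, a ratio of 1.61 (1.47 to 1.75). Cd14, the co-receptor for lipopolysaccharide, was at 754 and 965 CPM, and the list had a median log2 ratio of 0.14. In the adhesion and homing list 3 of 20 were higher: Cxcr4, the receptor that holds cells in the bone marrow, at 206 and 436 CPM, Fpr2, a formyl peptide receptor, at 47.9 and 131 CPM, and Fpr1, at 3.03 and 8.75 CPM. Cxcr4 UMIs were in 35.6 and 53.5% of thinned cells and in 39.1 and 59.2% of thinned T cells, so T cells had a similar difference. The integrin gene Itgam was at 479 and 489 CPM.

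A minority of the cells held Arg1. After thinning, 89 of 564 PBS cells and 80 of 520 UDSP-Hep cells had a UMI of it, against 5.62 and 4.48% of T cells. With against without Arg1, mean UMIs of Ccl7 were 5.65 against 0.562 in PBS and 2.55 against 0.489 in UDSP-Hep, of Ccl2 7.65 against 1.63 in PBS and 3.60 against 1.60 in UDSP-Hep, of Mrc1 1.25 against 0.253 in PBS and 1.04 against 0.336 in UDSP-Hep and of Vegfa 0.888 against 0.175 in PBS and 1.05 against 0.530 in UDSP-Hep. Hp went the other way, with 0.393 against 1.53 in PBS and 0.600 against 1.32 in UDSP-Hep, and so did Plac8, with 10.2 against 16.9 in PBS and 11.2 against 16.2 in UDSP-Hep. Il1b was alike, with 3.75 against 3.74 in PBS and 7.99 against 8.32 in UDSP-Hep.

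Of lists given above only in part or not at all, the median log2 ratios were 0.19 for hypoxia, 0.10 for macrophage differentiation, 0.05 for lipid handling and lysosome, 0.01 for monocyte-derived dendritic cell genes, 0.01 for alternative activation and suppression, and 0.01 for iron, metallothionein and antioxidant genes, against 0.07 for all genes. Under median-of-ratios scaling the last 4 of these medians were below 0.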
